A study of Homo sapiens with 4 samples.

Results

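Genes that hypoxia-inducible factors (HIFs) are known to induce and that lie outside glycolysis were followed in TET1-overexpressing ovarian cancer cells. They are CA9, CA12, ADM, VEGFA, NDRG1, BNIP3, ANKRD37, EGLN3, P4HA1 and ANGPTL4, chosen by name as 10 of the 26506 genes listed in the RNA-seq tables. The cells were HeyC2 and SKOV3, 2 human epithelial ovarian cancer lines. Each line was transfected with an empty plasmid (control, genotype labelled Wild-type) or with pCMV6/TET1 (genotype labelled TET1 overexpressed), a plasmid that encodes full-length TET1, a dioxygenase that oxidises 5-methylcytosine. All groups received 3 µg of plasmid with lipofectamine and were kept under 400 µg/ml Geneticin. The labels do not say whether the selected cells were pools or clones, and they name no low-oxygen exposure. Each of the 4 groups was 1 library, so no value below has a replicate error and no p-value was computed.

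HIF is a transcription factor of an oxygen-labile α subunit, HIF1A or EPAS1, and a stable partner, ARNT. When oxygen is available, prolyl hydroxylases of the EGLN family mark the α subunit, the VHL ubiquitin ligase binds it and the proteasome destroys it, so HIF activity is set largely at the protein level. When the α subunit persists, the dimer binds hypoxia response elements with the core RCGTG, where R is A or G, and induces genes for pH control, blood vessel growth, mitophagy and collagen folding besides those of glycolysis. Oxygen is not the sole input of these promoters, since VEGFA and ADM also answer to other stress and growth signals.

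The HIF core is short, and the members' promoters show how differently it occurs among them. The 250 bases before the start of 5 members whose levels are described below follow, 5′ to 3′ on the strand of the gene, from RefSeq on GRCh38.p14. They are chr9:35673678-35673927 on the + strand for CA9, chr15:63381847-63382096 on the - strand for CA12, chr11:10304823-10305072 on the + strand for ADM, chr10:131981924-131982173 on the - strand for BNIP3 and chr10:73096867-73097116 on the - strand for P4HA1. Capitals mark ACGTG and GCGTG on either strand, so that they also appear as CACGT and CACGC, and overlapping matches run together.
CA9: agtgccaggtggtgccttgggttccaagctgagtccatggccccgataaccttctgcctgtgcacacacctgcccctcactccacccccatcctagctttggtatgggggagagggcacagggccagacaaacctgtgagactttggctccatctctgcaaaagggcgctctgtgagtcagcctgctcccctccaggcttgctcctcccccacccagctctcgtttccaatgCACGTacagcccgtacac
CA12: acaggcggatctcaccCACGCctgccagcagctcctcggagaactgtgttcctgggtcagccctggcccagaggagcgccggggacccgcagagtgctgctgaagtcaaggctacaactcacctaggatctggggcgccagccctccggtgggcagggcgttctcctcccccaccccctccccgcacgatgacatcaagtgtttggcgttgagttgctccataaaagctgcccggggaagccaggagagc
ADM: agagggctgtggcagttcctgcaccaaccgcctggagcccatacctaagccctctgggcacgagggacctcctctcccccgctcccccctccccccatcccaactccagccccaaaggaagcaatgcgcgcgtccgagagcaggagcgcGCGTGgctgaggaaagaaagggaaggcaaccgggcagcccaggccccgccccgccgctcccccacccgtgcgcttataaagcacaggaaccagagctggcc
BNIP3: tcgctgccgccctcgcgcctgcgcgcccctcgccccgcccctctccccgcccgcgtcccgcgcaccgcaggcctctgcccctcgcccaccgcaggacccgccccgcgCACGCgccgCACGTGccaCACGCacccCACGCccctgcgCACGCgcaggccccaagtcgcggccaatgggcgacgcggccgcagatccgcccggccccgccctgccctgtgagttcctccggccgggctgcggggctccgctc
P4HA1: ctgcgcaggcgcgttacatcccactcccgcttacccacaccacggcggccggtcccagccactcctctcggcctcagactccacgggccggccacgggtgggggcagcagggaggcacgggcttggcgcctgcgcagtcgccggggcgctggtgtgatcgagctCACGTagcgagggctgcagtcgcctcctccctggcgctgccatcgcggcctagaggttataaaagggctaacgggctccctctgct

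CA9 carried 1 match, ACGTG on the opposite strand 18 bases before the start. P4HA1 carried 1 ACGTG, 86 bases before the start, and CA12 and ADM each carried 1 GCGTG, at 234 and 101 bases. BNIP3 carried 6 matches between 143 and 104 bases before the start, including 1 palindromic CACGTG that counts as ACGTG on both strands. Of the other members with an entry, ANKRD37 carried 3 matches, ANGPTL4 carried 1 and EGLN3 had none of these letters in its window. Either core stood in 7 of the 8 member promoters with an entry, beside 43.2% of 35116 promoters of the same length, and ACGTG stood in 5 of 8, beside 18.5%. GCGTG was present in 32.2% of all promoters and CACGTG in 6.34%. CpG dinucleotides, the substrate on which TET1 acts when methylated, numbered from 5 in the CA9 window to 41 in that of BNIP3, with a median of 11 over all promoters. A match is a string of letters and was not tested as a binding site. VEGFA and NDRG1 are described by their levels alone.

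FPKM (fragments per kilobase of transcript, relative to all mapped fragments) is scaled to transcript length, so levels can be set side by side between genes. In both deposited TET1 columns GAPDH equals its control value, 5417 FPKM in HeyC2 and 2248 FPKM in SKOV3. The spacing of the values gave the factor behind this, 3.23 in HeyC2 and 1.35 in SKOV3, and 100% of the TET1 values under 40 FPKM lay on the resulting grid. GAPDH is itself a glycolytic HIF target, and before scaling it stood at 1675 and 1671 FPKM in the TET1 libraries of HeyC2 and SKOV3. Levels below are given before scaling. Changes are log2 ratios with 1 FPKM added, relative to the median of all genes with a mean of at least 1 FPKM in the line, a median that was 0.06 in HeyC2 and 0.19 in SKOV3. A gene was called higher or lower at 1.5-fold on that relative scale, and the word has no replicate test behind it. Without centring, the scale decides the direction in HeyC2. There 8 of 10 members were higher and 1 was lower in the TET1 column as deposited, against 4 higher and 5 lower before scaling. In SKOV3 the split was 3 higher and 7 lower on either scale. The share of all genes higher as deposited was not computed. With the deposited values centred, 1 member was called higher and 3 lower in HeyC2, with a median of -0.27.

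Estimated depth was 6410000 to 7190000 fragments per library, and 15162 to 16941 genes were above 0 FPKM. Across all genes, the libraries of HeyC2 had a Spearman correlation of 0.960, those of SKOV3 0.949 and pairs between the lines 0.880 to 0.888. TET1 stood at 0.20 FPKM in control and 0.519 in TET1 HeyC2, and at 0.43 and 1.80 FPKM in SKOV3, so the labelled TET1 library had the higher value in each line. In HeyC2 this rests on about 14 and 32 fragments, under the filter of a mean of 1 FPKM, and in SKOV3 on about 29 and 109. The keratins KRT8 and KRT18 were between 193 and 775 FPKM in the 4 libraries, within 1.5-fold with TET1 in each line. EPCAM was under 1 FPKM in both HeyC2 libraries and CDH1 was listed at 0 there. Blood markers were under 1 FPKM throughout, and so were endothelial markers except CDH5 in HeyC2, at 18.9 FPKM in control and 94.6 FPKM in TET1. Other markers moved with TET1 in both lines. In SKOV3 the keratins KRT7 and KRT19 went from 1537 and 255 FPKM in control to 21.96 and 0.461 FPKM in TET1, CDH1 from 2.24 to 6.30 FPKM, and EPCAM stayed within 1.5-fold. In HeyC2 KRT7 went from 290 to 1125 FPKM, the mesenchymal marker VIM from 7496 to 2927 FPKM and FN1 from 5557 to 2619 FPKM. The mesenchymal marker CDH2 went the other way there, from 26.9 to 43.2 FPKM (0.61). The ovarian marker MSLN went from 46.6 to 77.5 FPKM in HeyC2 and from 10.3 to 0.0817 FPKM in SKOV3. PAX8 went from 128 to 195 FPKM in HeyC2 and from 74.6 to 131 FPKM in SKOV3, and WT1 and MUC16 were under 1 FPKM throughout. In SKOV3 the fibroblast markers summed to 0.91 and 32.5 FPKM, of which COL1A1 made up 27.7 FPKM in TET1. The part of these shifts in the changes below was not tested. In bulk RNA, fewer cells expressing a gene and less RNA per cell cannot be told apart.

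The HIF targets did not move as a block. In HeyC2, 1 member was higher with TET1 (ADM), 3 were lower (VEGFA, NDRG1 and ANKRD37, the last on about 9 and 4 fragments with a counting interval that includes 0), 3 stayed within 1.5-fold and 3 were under the filter of 1 FPKM. In that comparison 12.5% of 11894 tested genes were higher and 9.17% were lower. In SKOV3, 1 member was higher (VEGFA), 6 were lower (CA9, CA12, ADM, NDRG1, BNIP3 and ANGPTL4), 2 were within 1.5-fold and 1 was under the filter. CA9, listed at 0 with TET1, passed the filter there through its control alone, so it could be called only as lower. With a mean of at least 5 FPKM, which removed CA9 and ended the call of ANGPTL4, 4 were lower and the median was -0.70. There 20.7% of 13013 tested genes were higher and 18.2% were lower. The median relative change was -0.37 over the 7 members that passed the filter in HeyC2 and -0.79 over the 9 that passed in SKOV3, beside 0 for all tested genes. NDRG1 alone was lower in both lines (2.54% of 11134 genes tested in both), ADM alone was higher in HeyC2 and lower in SKOV3 (1.77%), and VEGFA alone was lower in HeyC2 and higher in SKOV3 (1.38%). Each of these counts is 1 of the 7 members tested in both lines, and with 1 library per condition none of them separates the members from the background.

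**Figure D1:**
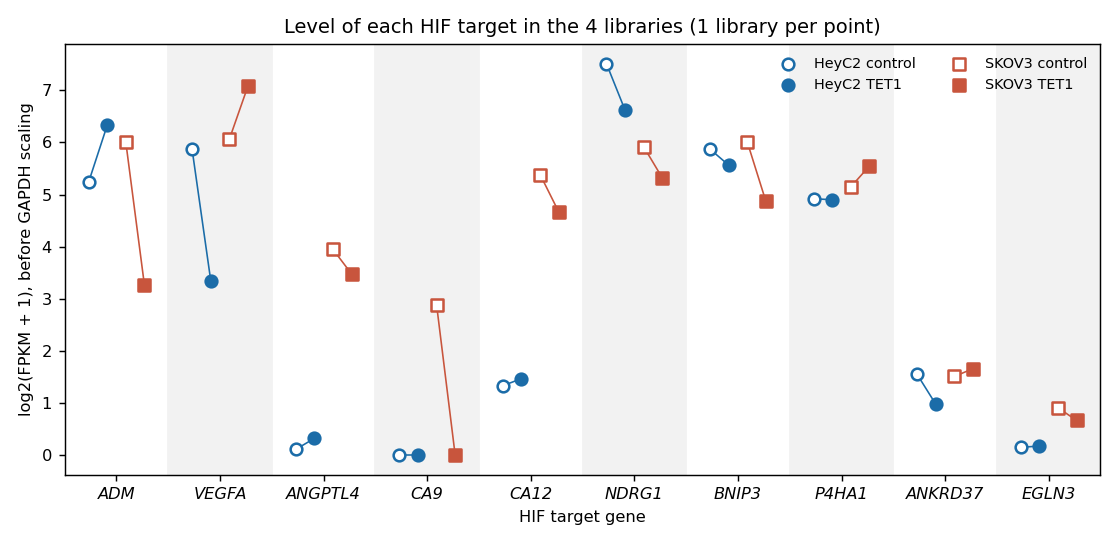
Level before the scaling to GAPDH, as log2(FPKM + 1) (vertical axis), of each of the 10 HIF targets (horizontal axis) in the HeyC2 and SKOV3 control and TET1 libraries, 1 point per library. ADM and VEGFA exchange places between the lines, CA9 is above 0 in 1 of 4 libraries, and NDRG1 is lower with TET1 in both lines.

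VEGFA (GRCh37 chr6:43737921-43754224, + strand, 8 exons), the main growth factor for blood vessels, was read at 57.4 FPKM in HeyC2 control, 9.19 in HeyC2 TET1, 66.0 in SKOV3 control and 135 in SKOV3 TET1. The controls were close together and the TET1 libraries lay on opposite sides of them. Its relative change in HeyC2 was -2.58, or 5.97-fold lower, with a 95% counting interval of -2.92 to -2.49 from about 1440 and 209 fragments. Only 0.0925% of tested HeyC2 genes lay below it. In HeyC2 VEGFA was also lower in the TET1 column as deposited, at 29.7 FPKM, and it was the sole member of which this held. In SKOV3 its relative change was 0.83, or 1.78-fold higher (interval 0.75 to 0.93), above 86.4% of tested genes. All counting intervals here cover the sampling of fragments only and not the spread between cultures.

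ADM (chr11:10326620-10328944, + strand, 4 exons) encodes adrenomedullin, a secreted vasodilator peptide. It was read at 36.7 FPKM in HeyC2 control and 79.4 in HeyC2 TET1, against 63.2 in SKOV3 control and 8.57 in SKOV3 TET1. Within each line the direction was the opposite of that for VEGFA, with TET1 above control in HeyC2 and below it in SKOV3. The relative change was 1.04 in HeyC2 (2.05-fold higher, interval 0.87 to 1.24), above 96.2% of tested genes. In SKOV3 it was -2.94 (7.67-fold lower, interval -3.44 to -2.73), with 0.361% of tested genes below it and about 591 fragments in control against 75 with TET1. Among the members with a fragment count in both SKOV3 libraries, no other was this far down. Its promoter window, printed above, holds 1 GCGTG and no ACGTG.

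ANGPTL4 (chr19:8428173-8439254, + strand), a secreted inhibitor of lipoprotein lipase that PPARs also induce, was near 0 in HeyC2, at 0.08 FPKM in control and 0.25 in TET1, or about 1 and 3 fragments. In SKOV3 it stood at 14.5 FPKM in control and 10.1 in TET1. The relative change there was -0.67, or 1.59-fold lower, with an interval of -1.06 to -0.36. That call was close to the threshold and ended under 3 alternative ways of processing, which gave -0.57 to -0.44.

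CA9 (chr9:35673925-35681156, + strand) and CA12 (chr15:63613577-63674045, - strand) encode carbonic anhydrases anchored in the cell membrane, with the active site outside the cell, which serve pH control. CA9 was above 0 in SKOV3 control alone, at 6.42 FPKM or about 63 fragments. It is listed at 0 in SKOV3 TET1 and in both HeyC2 libraries, so no fold is given. PLIN2, a lipid droplet coat gene that many cell types use, is also listed at 0 in both HeyC2 libraries, and FPKM alone cannot tell absence from a failed estimate. CA9 also shares 571 of its 1546 exon bases with ARHGEF39 on the opposite strand, and the use of strand in counting is not given in the sources used here. ARHGEF39 was 12.0 FPKM in SKOV3 control and 9.58 in SKOV3 TET1, a relative change of -0.49.

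CA12 was present in all 4 libraries, at 1.52 FPKM in HeyC2 control, 1.77 in HeyC2 TET1, 40.8 in SKOV3 control and 24.4 in SKOV3 TET1. Both SKOV3 libraries were above both HeyC2 libraries, and TET1 was below control in SKOV3. The relative change was -0.91 in SKOV3, or 1.88-fold lower (interval -1.05 to -0.82). In HeyC2 it was 0.08, with an interval of -0.35 to 0.67 that includes 0 and rests on about 65 and 68 fragments. Among their relatives, the cytosolic carbonic anhydrase CA2 went from 0.63 to 1.87 FPKM in HeyC2 (0.76) and from 24.4 to 7.63 FPKM in SKOV3 (-1.75), and CA13 was 0.11 and 0.21.

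NDRG1, a stress-responsive gene that is widely used as a readout of hypoxia, was the highest member in both HeyC2 libraries, at 182 FPKM in control and 97.5 with TET1. In SKOV3 it stood at 59.5 FPKM in control and 38.9 with TET1. TET1 was below control in each line, by -0.95 in HeyC2 (1.93-fold, interval -1.04 to -0.88) and by -0.79 in SKOV3 (1.73-fold, interval -0.94 to -0.67). Without centring, the HeyC2 direction depends on the scale, since the deposited TET1 value is 315 FPKM. With the deposited values centred, the relative change in HeyC2 was -0.84. In SKOV3 the call ended when the values were rescaled to TPM and not centred, which gave -0.55. Its paralogue NDRG3 went the same way in SKOV3 only (-0.65) and was 0.20 in HeyC2, while NDRG4 was 1.52 in SKOV3 and -0.32 in HeyC2. NDRG2 was listed at 0 in HeyC2 and was 0.37 in SKOV3.

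BNIP3 (chr10:133781188-133795471, - strand), a mitochondrial outer membrane protein that serves as a mitophagy receptor, was read at 57.6 FPKM in HeyC2 control, 46.4 in HeyC2 TET1, 63.5 in SKOV3 control and 28.2 in SKOV3 TET1. TET1 was below control in both lines before scaling. The relative change was -1.33 in SKOV3, or 2.52-fold lower (interval -1.58 to -1.15). In HeyC2 it was -0.37 (interval -0.55 to -0.19), within 1.5-fold. BNIP1, of the same family list, was lower in both lines (-0.59 and -0.60), just past the threshold, and BNIP2 was -0.20 and 0.03. BNIP3L, the related mitophagy receptor and also a HIF target, was 0.18 in HeyC2 and 0.29 in SKOV3, in neither line past 1.5-fold.

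P4HA1 (chr10:74766975-74856732, - strand), the catalytic α subunit of collagen prolyl 4-hydroxylase, stayed within 1.5-fold in both lines. Its level was 29.3 FPKM in HeyC2 control, 28.9 in HeyC2 TET1, 34.5 in SKOV3 control and 45.9 in SKOV3 TET1. The relative change was -0.08 in HeyC2 (interval -0.26 to 0.10) and 0.21 in SKOV3 (interval 0.07 to 0.37). In the same enzyme family, P4HA2 was 0.04 and -0.26 in the 2 lines, and P4HB, the β subunit, was 0.02 in HeyC2 and -0.74 in SKOV3. P4HA3 was listed at 0 in HeyC2 and was higher in SKOV3, from 0.33 to 3.03 FPKM (1.408). Collagen lysyl hydroxylase genes split, with PLOD1 at -0.32 and -0.79 and PLOD2 at 0.57 in both HeyC2 and SKOV3.

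EGLN3 (chr14:34393433-34931980, - strand), the hypoxia-inducible member of the prolyl hydroxylases that mark HIF for destruction, was under the filter in both lines. It was read at 0.11 FPKM in HeyC2 control and 0.13 in TET1, and at 0.88 and 0.587 FPKM in SKOV3, or about 16 and 10 fragments, so no change was called. ANKRD37 (chr4:186317175-186321782, + strand), a small ankyrin-repeat protein gene, was read at 1.93 and 0.971 FPKM in HeyC2 and at 1.85 and 2.16 FPKM in SKOV3. Its relative change in HeyC2, -0.63, passed 1.5-fold on about 9 and 4 fragments, and the interval of -3.20 to 0.79 includes 0. In SKOV3 it was -0.04, on 8 and 9 fragments (interval -1.51 to 1.61). ANKRD37 shares 429 of 784 exon bases with UFSP2 on the opposite strand, which was -0.17 in HeyC2 and -0.43 in SKOV3. The call for ANKRD37 in HeyC2 is therefore within counting error.

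**Figure D2:**
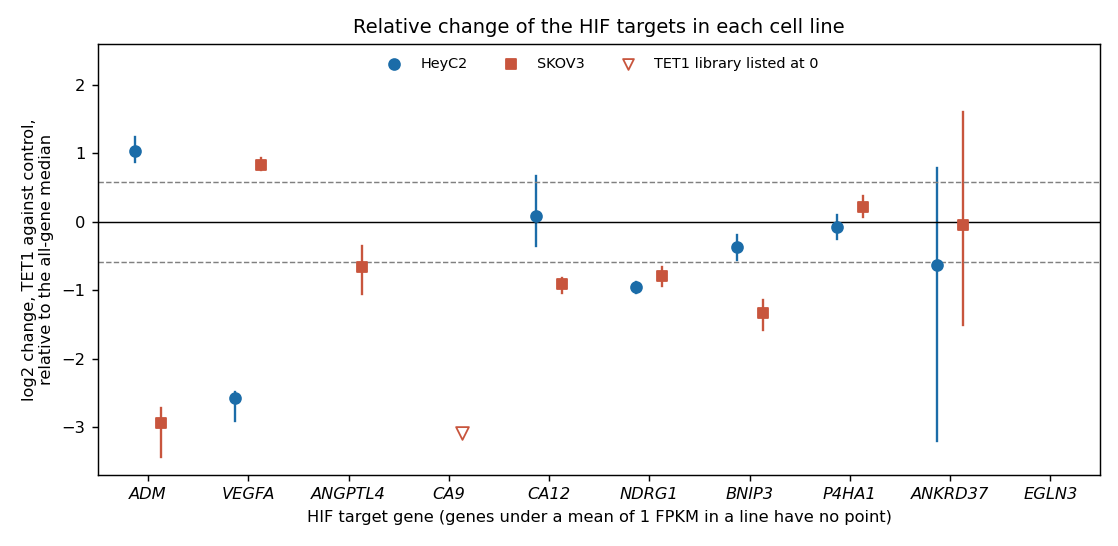
Relative log2 change, TET1 against control (vertical axis), of each HIF target (horizontal axis) in HeyC2 and SKOV3, 1 library per condition. Bars are 95% counting intervals, built without the 1 FPKM that is added for the points, so the 2 differ most for low genes. Dashed lines mark 1.5-fold, and the bars of ANKRD37 cross 0 in both lines. The open triangle marks CA9, listed at 0 in SKOV3 TET1 and placed by the added 1 FPKM.

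The controls themselves differed in these genes. CA12 was 40.8 FPKM in SKOV3 control and 1.52 in HeyC2 control, or 13.8-fold higher with 1 FPKM added. At a level as low as that of HeyC2, the added 1 FPKM makes this fold smaller. ANGPTL4 was 14.5 FPKM against 0.08, on about 174 and 1 fragments, so no fold is given, and CA9 was above 0 in SKOV3 control alone. NDRG1 was 3.64-fold lower in SKOV3. ADM, VEGFA, BNIP3, ANKRD37 and P4HA1 were within 1.5-fold between the controls, and EGLN3 was under the filter. So 3 members were higher and 1 was lower in SKOV3, beside 28.6% and 29.0% of 12488 tested genes. These folds are relative to the median difference between the controls, and the tables of the 2 lines were made separately. Each control also enters the change of its own line. Summed over the 10 members, the level before scaling was 366 FPKM in HeyC2 control, 264 in HeyC2 TET1, 351 in SKOV3 control and 294 in SKOV3 TET1. NDRG1 led the order in both HeyC2 libraries and VEGFA in both SKOV3 libraries, and VEGFA dropped from the third to the fifth place in HeyC2 while ADM dropped from the third to the seventh in SKOV3.

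Receptors for these ligands were scarce. The VEGF receptor genes FLT1 and KDR were at most 0.60 FPKM in any library, and the adrenomedullin receptor gene CALCRL was at most 0.230 FPKM. RAMP1, a partner of CALCRL, was 7.75 and 7.76 FPKM in HeyC2 and was listed at 0 in SKOV3, while RAMP2 and RAMP3 were under the filter. The VEGF co-receptor NRP1 went from 75.5 to 37.7 FPKM in HeyC2 (-1.04) and from 30.9 to 41.6 FPKM in SKOV3 (0.23). NRP2 was -0.01 and -0.62. The sister ligand VEGFB was higher in HeyC2 (0.75) and 0.19 in SKOV3, and VEGFC was -0.20 in HeyC2 and lower in SKOV3 (-1.17). PGF was 0.37 in HeyC2 and under the filter in SKOV3. ANGPTL2 was higher in HeyC2 (1.21) and ANGPTL6 was 0.48 there, both under the filter in SKOV3. The list of family members and receptors had 3 of 16 tested genes higher and 2 lower in HeyC2, beside 12.5% and 9.17% of all tested genes. In SKOV3 it had 2 of 14 higher and 6 lower, beside 20.7% and 18.2%, and the 6 became 2 under upper-quartile scaling, as TPM or with a mean of at least 5 FPKM.

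Among the genes that make and control HIF, 11 of 12 passed the filter in HeyC2, with 1 higher (EPAS1), 0 lower and a median of -0.21, beside 12.5% and 9.17% of all tested genes. In SKOV3, 11 passed, with 2 higher (ARNT2 and VHL), 2 lower (EPAS1 and CREBBP) and a median of -0.03, shares near those of all tested genes (20.7% and 18.2%). HIF1A, the α subunit of most acute responses, was 60.0 and 51.5 FPKM in HeyC2 (-0.28) and 242 and 351 FPKM in SKOV3 (0.34). EPAS1, which encodes HIF-2α, was 16.3 and 26.1 FPKM in HeyC2 (0.59) and 26.8 and 19.4 FPKM in SKOV3 (-0.64). These values just pass the threshold, and under upper-quartile scaling 0 regulators were higher in HeyC2 and 1 was lower in SKOV3. VHL, which targets both α subunits for destruction, was 21.4 and 30.8 FPKM in HeyC2 (0.45) and 19.5 and 47.7 FPKM in SKOV3 (1.06). ARNT was -0.28 and 0.10 and ARNT2 was -0.21 and 0.94 in HeyC2 and SKOV3. The oxygen sensors EGLN1 (0.19 and -0.03), EGLN2 (0.06 and -0.20) and HIF1AN (-0.27 and -0.09) were within 1.5-fold in both lines. The coactivators EP300 (-0.44 and 0.16) and CREBBP (-0.41 and -0.87) and their competitor CITED2 (-0.21 and -0.29) included the 1 call for CREBBP in SKOV3. HIF3A was listed at 0 or at 0.03 FPKM. These are transcript levels, and HIF protein was not measured in these files.

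A longer list of 45 other HIF targets outside glycolysis had no common direction. In HeyC2, 36 passed the filter, of which 9 were higher and 6 lower, with a median of -0.12. These calls were 25% and 16.7% of the list, beside 12.5% and 9.17% of all tested genes. In SKOV3, 37 passed, of which 9 were higher and 10 lower, with a median of -0.05. There the calls were 24.3% and 27.0%, beside 20.7% and 18.2% of all tested genes. The glycogen branching enzyme GBE1 (-0.59 and -0.69), the small MAF factor MAFF (-1.33 and -0.90) and the amino acid transporter SLC7A5 (-2.24 and -1.45) were lower in both lines. HMOX1, which encodes heme oxygenase, was higher in both (0.65 and 0.90). The highest in HeyC2 was the immediate early gene FOS, at 3.32, and it was -0.39 in SKOV3. The lowest in SKOV3 was DUSP1, another immediate early gene, at -3.01, and it was 1.65 in HeyC2. STC1, which encodes stanniocalcin, was listed at 0 in HeyC2 control and stood at 4.41 FPKM in HeyC2 TET1. BHLHE41 was -1.51 in HeyC2 and 1.96 in SKOV3. In SKOV3 the highest of the list were DDIT4 (2.45), an mTORC1 inhibitor, and KLHL24 (2.01), and EDN1, which encodes endothelin, was -1.56.

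Of the 19 glycolytic HIF targets tested in both lines, 6 were called lower in both, beside 2.54% of 11134 genes. Others stayed within 1.5-fold or differed by line. In HeyC2, 20 of 21 passed the filter, with 0 higher, 9 lower and 11 within 1.5-fold. Of all tested genes 12.5% were higher and 9.17% lower there, and the median of the list was -0.52. It was -0.63 in SKOV3, where 20 passed, with 3 higher (PFKFB3, ALDOC and ENO2) and 11 lower, beside 20.7% and 18.2%. HK2, GPI, PFKP, ALDOA, GAPDH and PGK1 were lower in both lines. In HeyC2 the lowest was the glucose transporter SLC2A3 (-1.89), followed by GAPDH (-1.75), and the highest were PFKFB4 (0.05) and SLC2A1 (0.04). In SKOV3 the lowest were SLC2A1 (-1.27) and LDHA (-1.01) and the highest were ALDOC (1.32) and PFKFB3 (0.89). Under upper-quartile scaling, and when rescaled to TPM, 6 rather than 11 were lower in SKOV3.

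ATF4 is the transcription factor of the amino acid and unfolded protein response, and VEGFA is among the genes it can induce. The ATF4 transcript itself was 0.02 in HeyC2 and 0.80 in SKOV3, and a link to VEGFA was not tested. The median of its targets was -0.85 in HeyC2, with 0 of 15 tested higher and 11 lower, beside 12.5% and 9.17% of all tested genes. In SKOV3 it was 1.2, with 10 of 14 tested higher and 3 lower, beside 20.7% and 18.2%. Asparagine synthetase ASNS went from 22.2 to 3.99 FPKM in HeyC2 (-2.28) and from 9.61 to 65.4 FPKM in SKOV3 (2.45). PSAT1, of serine synthesis, was lowest in HeyC2 (-2.52), where DDIT4 (-0.33) and ATF3 (-0.47) were highest, and CHAC1, a glutathione-degrading enzyme, was highest in SKOV3 (3.42). SLC7A11, ATF5 and SLC3A2 were lower in both lines. DDIT4, VLDLR and STC2 stand in this list and in that of the other HIF targets. Of the 14 tested in both lines, 8 were lower in HeyC2 and higher in SKOV3, beside 1.38% of 11134 genes. Of 8 PPAR targets, set beside ANGPTL4, 3 were tested in HeyC2 with 0 calls, beside 12.5% higher and 9.17% lower of all tested genes. Another 5 tests in SKOV3 gave 1 higher (ACADVL, 0.91) and 0 lower, beside 20.7% and 18.2%. In SKOV3 PDK4 (0.38) followed ACADVL, with CPT1A (-0.02) and HADHA (0.04) lowest.

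**Figure D3:**
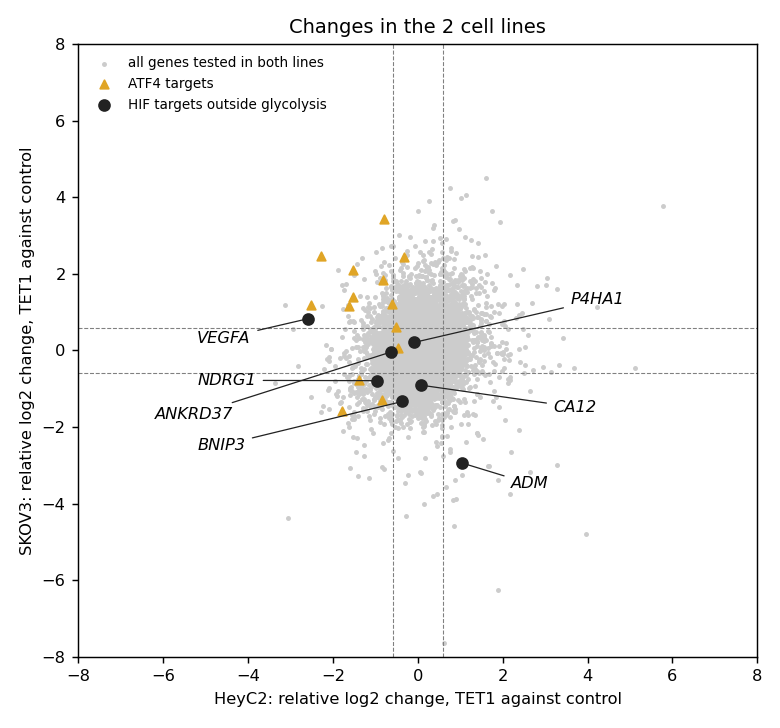
Relative log2 change with TET1 in SKOV3 (vertical axis) against that in HeyC2 (horizontal axis) for the 11134 genes tested in both lines (grey), the ATF4 targets (triangles) and the 7 HIF targets tested in both (black, named). Dashed lines mark 1.5-fold, VEGFA lies at upper left and ADM lies at lower right. Past the lines at upper left also lie 8 of the 14 ATF4 targets tested in both lines, beside 1.38% of all 11134 genes.

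**Figure D4:**
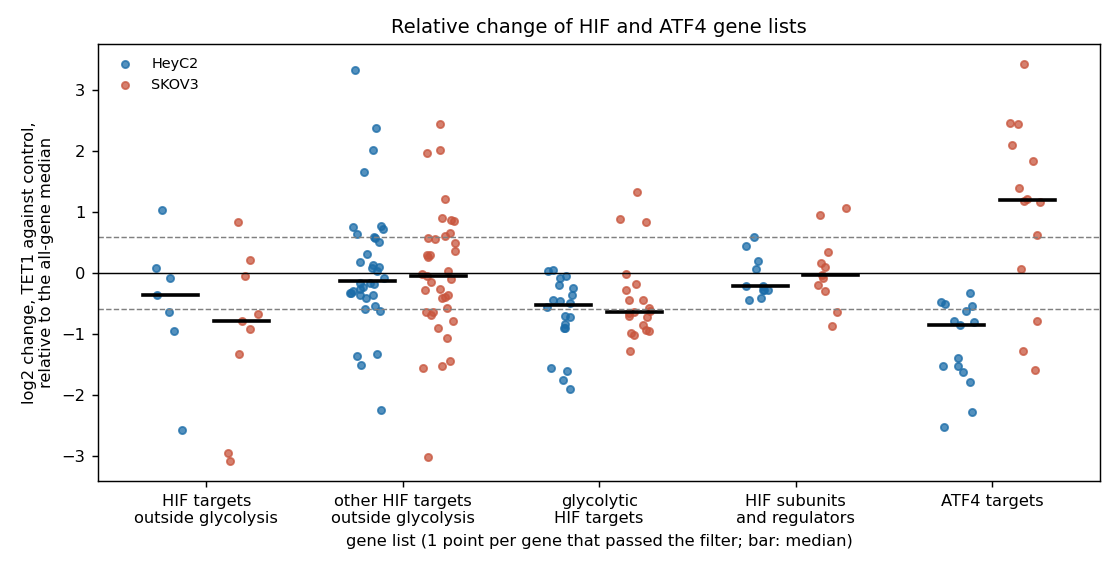
Relative log2 change with TET1 (vertical axis) of every tested gene of the 5 lists (horizontal axis) in HeyC2 and SKOV3, 1 point per gene, with each list's median as a bar, dashed lines at 1.5-fold and CA9 in SKOV3 (TET1 listed at 0) placed by the added 1 FPKM. Medians of the glycolytic list are -0.52 and -0.63, and those of the ATF4 list are -0.85 and 1.2.

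The gene whose profile over the 4 libraries was most like that of VEGFA was DDIT3, which encodes the stress factor CHOP and is itself in the ATF4 list. Likeness was the Euclidean distance of log2(FPKM + 1), each gene centred on its own mean, over 11133 other genes tested in both lines, and it describes 4 libraries only. The distance of DDIT3 was 0.725, and its level was 25.8 FPKM in HeyC2 control, 8.08 in HeyC2 TET1, 34.4 in SKOV3 control and 89.8 in SKOV3 TET1. NSFP1 (0.783) and FAH (0.873) followed. For CA9, the member with the largest change in SKOV3 on the scale with 1 FPKM added, the nearest of 11134 genes were CTH (0.686), POLA2 (0.753) and TRIP13 (0.787). CTH, which encodes cystathionine gamma-lyase, was 16.2 FPKM in SKOV3 control and 1.3 in SKOV3 TET1.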

How the data were processed

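RNA-seq of 4 libraries was used, 1 per condition in each of 2 cell lines. Per the labels, paired-end TruSeq libraries were aligned to hg19 with Bowtie2 2.2.6 and quantified with RSEM 1.2.17. The deposited values are FPKM, 1 table per line. The authors' annotation and use of strand are not given in the sources used here. The scaling of the TET1 columns to GAPDH was read from the values and undone by division.

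Log2 changes used a pseudocount of 1 FPKM, genes with a mean of at least 1 FPKM in the line, and centring on their median, and a call meant 1.5-fold. Depth was estimated from the spacing of low FPKM values and MANE transcript lengths, and gave approximate fragment numbers and 95% Clopper-Pearson intervals of the ratio of the libraries. In the TET1 libraries another depth fitted that spacing nearly as well, with a score of 0.442 against 0.476 in HeyC2 and 0.387 against 0.427 in SKOV3. Fragment numbers and intervals rest on the best-fitting depth. Without molecular identifiers the intervals cover counting error only. The intervals were built on the ratio without the added 1 FPKM, so for low genes the change need not lie at their centre. In simulated data with 26506 genes per line, 200 well-expressed genes were given large changes. All 200 counted as recovered, but a lowered gene counted if it was merely not called higher. False calls were not counted, so this check says nothing of lower calls or of genes near the floor. Calculations ran in Python 3.11.15 (scipy 1.17.1, pandas 2.3.3, numpy 2.4.6), and matplotlib 3.10.9 drew the figures. Gene coordinates came from GENCODE on GRCh37, by symbol, and promoters from RefSeq on GRCh38.p14, which held 8 of the 10 members.

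The genes named are all 10 members, TET1 and GAPDH, the HIF regulators, family members and receptors. Of each other list they are the genes past 1.5-fold in the same direction in both lines and the 2 highest and 2 lowest in each, and the 3 genes nearest in profile to the member with the largest change in each line. BNIP3L, PLOD1, PLOD2, ATF4, PLIN2, the cell type markers and the opposite-strand genes were named after their values were seen. Some genes that this rule names are not reported here. The members and lists were chosen with earlier results of these data known. The alternatives were pseudocounts of 0.1 and 0.01 FPKM, no filter or a mean of at least 5 FPKM, the values as deposited and centred, upper-quartile scaling, rescaling to TPM without centring, and thresholds of 2-fold and 1.2-fold.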

Additional observations from a re-analysis of the deposited data

Results flagged for a closer look

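With TET1, 4 of the 7 HIF targets tested in both lines lay on opposite sides of the all-gene median in the 2 lines. The share of all 11134 genes that did so was not computed, so this count is not set apart from the background. The relative log2 change in SKOV3 minus that in HeyC2 was 3.41 for VEGFA, -3.97 for ADM, -0.99 for CA12 and 0.29 for P4HA1. With 1 library per condition these differences were not tested. CA12 in HeyC2 and P4HA1 in HeyC2 had counting intervals that include 0, whereas the intervals of VEGFA and ADM exclude 0 in both lines. With the values as deposited and centred, CA12 was -0.22 and P4HA1 was 0.0074 in HeyC2, on the same side as in SKOV3.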

How the results depend on the processing

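Of 108 alternative values of single HIF targets, 106 moved by less than the spread of the 500 genes nearest in expression, and none turned a called direction. The exceptions were those of CA9 in SKOV3, -6.24 and -9.54 with pseudocounts of 0.1 and 0.01 FPKM, which follow from its listing at 0. Over the alternatives VEGFA ranged from -2.71 to -2.56 in HeyC2 and from 0.82 to 1.08 in SKOV3, and ADM from 1.02 to 1.14 and from -3.10 to -2.76. The median of the HIF targets was -0.081 in HeyC2 without a filter, and in SKOV3 -0.62 under upper-quartile scaling and -0.55 when rescaled to TPM. At 2-fold, 1 HIF target was higher (ADM) and 1 was lower (VEGFA) in HeyC2, and in SKOV3 0 were higher and 3 were lower. Shares of all tested genes at 2-fold and 1.2-fold were not computed, so counts at these thresholds have no background beside them. At 1.2-fold, BNIP3 was also lower in HeyC2. The call of ANGPTL4 in SKOV3 ended with a mean of at least 5 FPKM (-0.57), under upper-quartile scaling (-0.49) and as TPM (-0.44), and that of NDRG1 in SKOV3 ended as TPM (-0.55). A mean of at least 5 FPKM removed ANKRD37 in HeyC2 and CA9 in SKOV3. For the other gene lists, whose alternatives were added after seeing the data, 241 of 300 medians and counts stayed within 0.1 (medians) or 1.5 times (counts), and 59 moved further. Among these, the SKOV3 medians changed sign under upper-quartile scaling, to 0.14 for the HIF regulators, 0.12 for the other HIF targets and 0.063 for the family list, and again when rescaled to TPM, to 0.22, 0.20 and 0.13. At 2-fold, 0 glycolytic targets were higher and 4 lower in HeyC2, and 1 was higher and 2 lower in SKOV3, again without an all-gene share.

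No paired analysis was possible because each group has 1 library. Leaving out a replicate could not be done for the same reason. A lone culture per condition cannot separate TET1 from differences between cultures, and depth limits EGLN3, ANKRD37, CA9 and, in HeyC2, ANGPTL4 and CA12.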
